A study of Mus musculus with 15 samples.

Results

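The genes described here are the NRF2 antioxidant and pentose phosphate genes of the mouse liver. The list named 34 genes, and the 27 of them that the array's probe table paired with a transcript cluster of their own were measured, out of 22180 genes in all. Of the other 7, Prdx1, Tkt and Ftl1 had only clusters that also named other genes, and Prdx6, Ggt1, G6pdx and Htatip2 were not analysed here. Genes were listed by function, with earlier results of these data known, and a gene with several clusters was read from the one with the highest mean signal over all arrays.

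Livers came from 15 male ApoE3L.CETP mice, a strain with human APOE*3-Leiden and CETP transgenes. Mice were 9 to 12 weeks old at the start by the labels, ate a high fat diet (60% fat, 0.25% cholesterol) over the 6 weeks ahead of surgery, and were killed 20 days after surgery. RYGB mice (n = 6) had Roux-en-Y gastric bypass, which leads food from a small stomach pouch straight into the jejunum. Sham AL mice (n = 5) had sham surgery and ate ad libitum, and BWm mice (n = 4) had sham surgery and were kept at a body weight matched to RYGB. All 3 groups share the transgenes, the diet and an operation, so no group shows the liver without them. How food was limited in BWm mice is not given in the sources used here. Each liver was measured on 1 GeneChip Mouse Gene 2.0 ST array, and values are log2 signals, on which 1 unit is a doubling. Signal over background was not measured here. Replicates are separate mice by their titles, so p-values measure the spread between mice.

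NRF2, the product of Nfe2l2, is a transcription factor that KEAP1 holds back and sends for degradation. When oxidants or electrophiles modify KEAP1, NRF2 accumulates, pairs with a small MAF protein and binds antioxidant response elements near its target genes. Those targets make and recycle glutathione and thioredoxin, supply NADPH through the pentose phosphate pathway, and reduce or conjugate reactive quinones and carbonyls. The liver relies on them when it handles drugs, bile constituents and lipid peroxides.

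The core of the antioxidant response element was searched as TGACNNNGC on both strands of RefSeq promoter windows (mouse build GRCm38.p6), which run from 250 bases before to 50 after a transcript start. Of the 34 genes, 29 had a window, with 41 windows among them, and 15 windows (36.6%) of 12 genes held the core. Of all 32851 windows in the table, 12.4% held it. Genes on this list were chosen as known NRF2 targets or partners, so the share describes the list and was not tested. The windows below are shown because their genes lead the results (Srxn1, Txnrd1, Ugdh, Pgd) or passed no test although a window holds the core (Nfe2l2, Gclm, Sod1), with the core in capitals and each read 5′ to 3′ on the strand of the gene.
Srxn1, chr2:152105542-152105570, plus strand, core starting at base 29 of the transcript: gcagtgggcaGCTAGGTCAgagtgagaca
Txnrd1, chr10:82859098-82859138, plus strand, core 92 bases before the start: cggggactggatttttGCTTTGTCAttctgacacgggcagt
Ugdh, chr5:65435950-65435990, minus strand, core 132 bases before the start: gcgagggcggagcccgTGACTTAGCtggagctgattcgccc
Ugdh, chr5:65435912-65435952, minus strand, core 94 bases before the start: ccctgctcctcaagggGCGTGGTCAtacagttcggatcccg
Pgd, chr4:149166061-149166089, minus strand, core starting at base 4 from a second listed start: atttcagagcTGACATTGCactgatcgga
Nfe2l2, chr2:75704879-75704913, minus strand, core 240 bases before the start: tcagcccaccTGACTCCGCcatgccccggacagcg
Gclm, chr3:122245407-122245447, plus strand, core 134 bases before the start: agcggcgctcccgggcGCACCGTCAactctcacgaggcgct
Sod1, chr16:90220690-90220730, plus strand, core 56 bases before the start: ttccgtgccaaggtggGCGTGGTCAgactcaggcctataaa

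In Srxn1, Txnrd1, Gclm, Sod1 and the second Ugdh stretch the core lies on the opposite strand and so is printed as its reverse complement. Txnrd1 had 3 windows from several listed starts and Pgd had 2, and in each gene 1 window held the core. None of the cores shown holds TGACTCA or its reverse complement, the motif of the AP-1 factors, which can overlap this element. The windows of Nqo1, Cbr1, Cbr3, Osgin1, Gss, Aox1 and Ephx1 had no match, which says only that these letters are not in those windows, and Gclc, Gsr and Slc48a1 had no window in the table. Mafg and 4 members not measured alone (Prdx1, Htatip2, Ggt1, G6pdx) also held the core and are not shown. A match is a stretch of letters and not a measured binding site.

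Across the 3 groups the genes did not move as 1 block. Against body weight-matched mice, 12 of the 27 genes were higher after bypass and 0 lower, among them Srxn1 (5.22-fold), Cbr3 (3.91-fold), Pgd (3.19-fold) and Nqo1 (3.08-fold). Against ad libitum sham mice, 6 were higher and 0 lower, with Cbr3 at 2.84-fold, Cbr1 at 2.26-fold and Srxn1 at 2.17-fold. Of these 6, Srxn1, Cbr1 and Osgin1 stayed called when any 1 array was left out, while Cbr3, Gclc and Nqo1 did not. Between the 2 sham groups, 4 genes were lower and 0 higher in BWm than in Sham AL, namely Srxn1, Pgd, Aox1 and Ephx1. NRF2 itself, KEAP1, catalase and superoxide dismutase passed no test in any comparison.

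These calls come from the main fit, which is 1 limma fit over all arrays with Benjamini-Hochberg adjustment over all genes at 0.05. In RYGB against BWm, 6.36% of all genes were called, 4.02% higher and 2.34% lower, beside 12 and 0 of 27 members. In RYGB against Sham AL the shares over all genes were 0.938% higher and 0.442% lower, beside 6 and 0. In BWm against Sham AL they were 1.53% higher and 1.3% lower, beside 0 and 4. At an unadjusted p under 0.05, 13 members were higher in RYGB than in Sham AL (7.66% of all genes) and 0 lower (5.28%), 16 were higher in RYGB than in BWm (10.6%) and 0 lower (7.73%), and 2 were higher (7.48%) and 12 lower (7.8%) in BWm than in Sham AL. The methods' one-way analysis of variance was run here on the 2 compared groups alone, at p under 0.05 and at least 1.5-fold. It called 7 members higher and 0 lower in RYGB than in Sham AL (370 genes called in all). The same analysis gave 11 higher and 0 lower in RYGB against BWm (857 in all), and 1 higher and 4 lower in BWm against Sham AL (554 in all). The median log2 difference of the 27 genes was 0.17 in RYGB against Sham AL, 0.45 in RYGB against BWm and -0.28 in BWm against Sham AL, beside 0, 0 and -0.01 over all genes. The comparisons share groups, so their counts are not independent of each other. In whole liver, fewer cells of a type and less RNA per cell cannot be told apart.

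**Figure D1:**
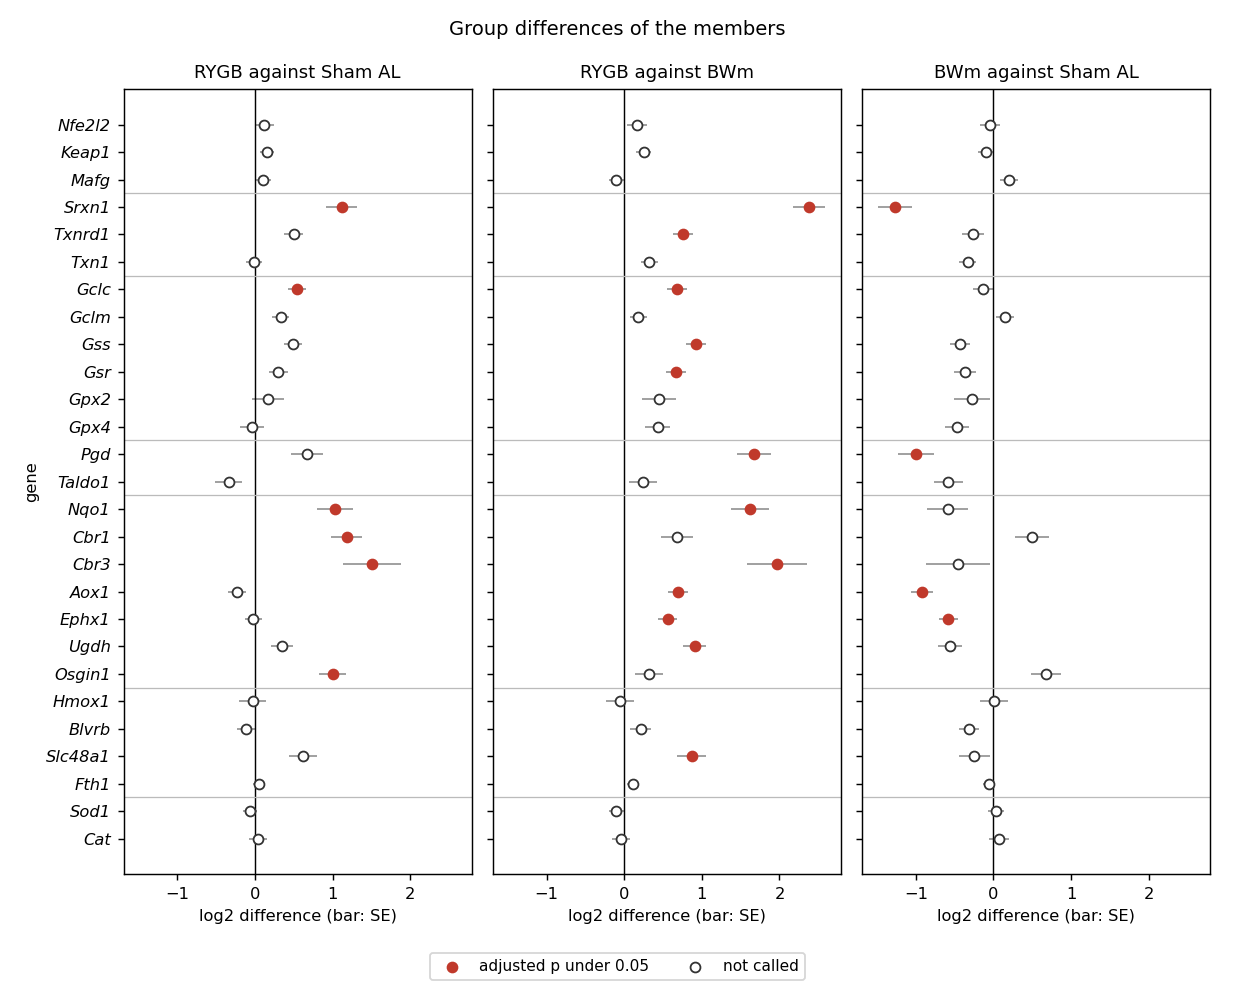
Log2 difference of each of the 27 genes (points, with standard errors as bars) in the 3 comparisons, with genes ordered by role and filled points where the adjusted p was under 0.05. The filled points lie to the right of 0 in both comparisons of RYGB and to the left of 0 in BWm against Sham AL, and the first 3 and last 2 genes (regulators, and Sod1 and Cat) have no filled point.

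The array of Sham AL replicate 4 stood apart, since it carried transcripts of other tissues. The mean of the 5 adrenal cortex markers was 9.54 on it against 3.09 to 3.43 on the others, that of the 4 brown fat markers 9.47 against 4.51 to 5.54, and that of the 3 measured white fat markers 6.59 against 2.80 to 3.31. Liver identity was checked with 5 hepatocyte markers, whose mean lay between 12.12 and 12.32 on every array. Kupffer cell markers averaged 7.61 to 8.05 in RYGB, 7.09 to 7.76 in Sham AL and 7.24 to 8.07 in BWm, with 1 of 7 called higher in RYGB than in Sham AL and 0 called in RYGB against BWm. Recruited macrophage markers averaged 5.82 to 6.81, 5.78 to 6.60 and 5.70 to 6.18 in the same order, and neutrophil markers 2.79 to 3.99, 2.62 to 3.2 and 2.68 to 3.04. The ranges of all 3 lists overlap between groups, and of the macrophage list 1 of 6 was lower in BWm than in Sham AL. Of 5 sinusoidal endothelium markers 1 was lower in RYGB than in BWm (list means 7.78 to 8.20 and 8.06 to 8.39), and 1 of the hepatocyte markers was higher in BWm than in Sham AL (list means 12.29 to 12.32 and 12.16 to 12.26). Within RYGB, replicates 4, 5 and 6 had the highest means of the macrophage list (6.57 to 6.81) and of the neutrophil list (3.42 to 3.99). The part of these cells in the results below was not tested. Without Sham AL replicate 4 the members called were 6 (RYGB against Sham AL, with Pgd in place of Gclc), 12 (RYGB against BWm) and 4 (BWm against Sham AL). Over all genes 318, 1544 and 499 were called in that fit, beside 306, 1411 and 629 with all arrays.

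The sensor pair comes first. Here and below, 3 values for RYGB are the lowest, median and highest of its 6 arrays, and listed Sham AL and BWm values are single arrays. Nfe2l2 encodes NRF2. It measured a lowest, median and highest value of 8.27, 8.68 and 8.82 in RYGB, 8.61, 8.51, 8.80, 8.49 and 8.18 in Sham AL, and 8.31, 8.46, 8.72 and 8.41 in BWm. The groups overlap throughout, with log2 differences of 0.12 ± 0.12 (SE) in RYGB against Sham AL, 0.16 ± 0.13 against BWm and -0.04 ± 0.13 in BWm against Sham AL. Keap1, which encodes the repressor, measured 6.62, 6.88 and 6.93 in RYGB, 6.76, 6.58, 6.68, 6.59 and 6.71 in Sham AL, and 6.69, 6.66, 6.51 and 6.41 in BWm. Its largest difference was log2 0.25 ± 0.1 in RYGB against BWm (adjusted p = 0.17), and 4 of 6 RYGB arrays lay above all BWm arrays. A dimmer second cluster of Keap1 gave log2 0.23 for the same comparison. Mafg, a small MAF partner of NRF2, differed by log2 -0.1 to 0.2 in the 3 comparisons and was not called. Messenger levels of these regulators say nothing of NRF2 protein, which is set mainly by degradation.

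The thioredoxin genes were led by Srxn1, which encodes sulfiredoxin, the enzyme that restores overoxidised peroxiredoxins. Srxn1 measured 7.62, 8.36 and 8.94 (lowest, median, highest) in RYGB, 6.96, 7.04, 7.39, 7.36 and 7.55 in Sham AL, and 6.38, 5.74, 5.67 and 6.19 in BWm. No array overlapped another group, and Srxn1 formed 3 separate steps with RYGB on top and BWm at the bottom. It differed by log2 1.12 ± 0.2 (adjusted p = 0.0077) in RYGB against Sham AL, 2.38 ± 0.21 (adjusted p = 1.3e-05) against BWm, and -1.27 ± 0.22 (adjusted p = 0.004) in BWm against Sham AL. Each of these 3 calls held when any 1 array was left out. Srxn1 was the only one of the 27 genes called in all 3 comparisons.

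Txnrd1 encodes the cytosolic thioredoxin reductase, a selenoprotein that spends NADPH to reduce thioredoxin. It measured 8.55, 9.02 and 9.22 in RYGB, 8.6, 8.47, 8.33, 8.32 and 8.82 in Sham AL, and 8.32, 8.16, 8.36 and 8.16 in BWm. RYGB replicate 1, at 8.55, lay among the Sham AL arrays, and the other 5 RYGB arrays, from 9.00 upward, lay above all of them. The difference was log2 0.76 ± 0.13 (adjusted p = 0.0017) against BWm, and 0.5 ± 0.12 (adjusted p = 0.057) against Sham AL. The second difference passed without RYGB replicate 1 or Sham AL replicate 5, at 0.59 (adjusted p = 0.0092) and 0.58 (adjusted p = 0.035). With all arrays it passed in some other settings, such as array medians subtracted (adjusted p = 0.038). It did not pass with the replicate number as a block (adjusted p = 0.18). Txn1, thioredoxin itself, measured log2 -0.01 ± 0.1 against Sham AL and 0.32 ± 0.11 (adjusted p = 0.082) against BWm, and the latter passed without RYGB replicate 1 or BWm replicate 4.

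Glutathione genes differed along the pathway. Gclc, the catalytic subunit of glutamate-cysteine ligase and the rate-limiting step of glutathione synthesis, measured 9.87, 10.31 and 10.43 in RYGB, 9.86, 9.66, 9.74, 9.38 and 9.81 in Sham AL, and 9.44, 9.49, 9.80 and 9.49 in BWm. All 6 RYGB arrays lay above all arrays of both other groups, though the lowest (9.87) and the highest Sham AL array (9.86) nearly met. Gclc was higher by log2 0.54 ± 0.12 (adjusted p = 0.031) against Sham AL and 0.68 ± 0.13 (adjusted p = 0.0032) against BWm. Against Sham AL the call was lost on leaving out any 1 of RYGB replicates 3, 4 and 6 and Sham AL replicates 2, 3 and 4 (log2 0.47 to 0.62 over all 15 arrays left out in turn, adjusted p of up to 0.087), and with the replicate block (log2 0.51, adjusted p = 0.11). Gclm, the modifier subunit that raises the efficiency of Gclc, measured log2 0.33 ± 0.11 against Sham AL (adjusted p = 0.16) and 0.18 ± 0.11 against BWm (adjusted p = 0.45). Whether the 2 subunits differed from each other in response was not tested.

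Gss, glutathione synthetase, adds glycine in the last step. It measured 8.06, 8.48 and 8.67 in RYGB, 7.92, 8.04, 7.89, 7.81 and 8.15 in Sham AL, and 7.85, 7.58, 7.27 and 7.42 in BWm. The RYGB arrays lay above all BWm arrays, and replicate 1, at 8.06, was the one that reached into the Sham AL range. Gss was higher by log2 0.92 ± 0.13 (adjusted p = 0.00028) than in BWm and measured 0.49 ± 0.12 (adjusted p = 0.053) against Sham AL. The latter passed without RYGB replicate 1 (log2 0.57, adjusted p = 0.013) and without BWm replicate 1 or 3. With all arrays it passed in some other settings, such as array medians subtracted (adjusted p = 0.037), and not with the replicate block (adjusted p = 0.18). In BWm against Sham AL Gss measured log2 -0.43 ± 0.13 (adjusted p = 0.096), which passed without BWm replicate 1 (log2 -0.54, adjusted p = 0.045).

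Gsr, glutathione reductase, returns oxidised glutathione to its reduced form with NADPH. It measured 8.26, 8.58 and 8.92 in RYGB, 8.34, 8.46, 8.08, 8.10 and 8.55 in Sham AL, and 8.18, 7.93, 7.85 and 7.79 in BWm. RYGB lay above all of BWm and overlapped Sham AL. Gsr was higher by log2 0.67 ± 0.13 (adjusted p = 0.0042) in RYGB than in BWm and measured log2 0.3 ± 0.12 (adjusted p = 0.3) against Sham AL. The peroxidase genes were not called in the main fit. Gpx4, which reduces phospholipid peroxides in membranes, measured log2 0.43 ± 0.16 (adjusted p = 0.13) against BWm and -0.04 ± 0.15 against Sham AL, and all 4 BWm arrays (5.82 to 6.42) lay under all 5 Sham AL arrays (6.53 to 6.90). Its difference against BWm passed with a block for the animal numbers described further on (log2 0.59, adjusted p = 0.028) and among animals numbered over 60 (log2 0.68, adjusted p = 0.026). Gpx2, best known from the gut lining, had group means of 1.75 to 2.19, while the arrays' own medians began at 3.89.

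Pgd stood for the oxidative arm of the pentose phosphate pathway: it encodes 6-phosphogluconate dehydrogenase, which yields NADPH. It measured 8.12, 8.99 and 9.07 in RYGB, 7.80, 8.0, 7.96, 9.01 and 8.04 in Sham AL, and 7.5, 7.10, 6.86 and 7.18 in BWm. The BWm arrays lay under all others. Among Sham AL arrays the value of 9.01 belongs to replicate 4, the array with adrenal and fat transcripts, and the other 4 lay between 7.80 and 8.04. The part of those tissues in that Pgd value was not tested. Pgd was higher by log2 1.67 ± 0.22 (adjusted p = 0.00017) in RYGB than in BWm, and lower, at log2 -1 ± 0.23 (adjusted p = 0.022) in BWm than in Sham AL.

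In the main fit Pgd in RYGB against Sham AL gave log2 0.67 ± 0.21 (adjusted p = 0.14), short of the threshold. Without Sham AL replicate 4 it was log2 0.88 ± 0.17 and passed (adjusted p = 0.009), and it also passed without RYGB replicate 1 (log2 0.81, adjusted p = 0.029). The difference between BWm and Sham AL was log2 -0.79 (adjusted p = 0.027) without Sham AL replicate 4, and its call ended without BWm replicate 2 or 3 (log2 -1.11 to -0.79 over all arrays left out in turn, adjusted p of up to 0.094). Taldo1, transaldolase of the non-oxidative arm, was not called in the main fit. It measured log2 -0.34 ± 0.17 in RYGB against Sham AL, 0.24 ± 0.18 against BWm and -0.58 ± 0.19 (adjusted p = 0.11) in BWm against Sham AL. The last of these passed with the animal number block (log2 -0.65, adjusted p = 0.045). G6pdx, the entry step of the pathway, and Tkt were not analysed here, so these results rest on 2 of its 4 listed genes.

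**Figure D2:**
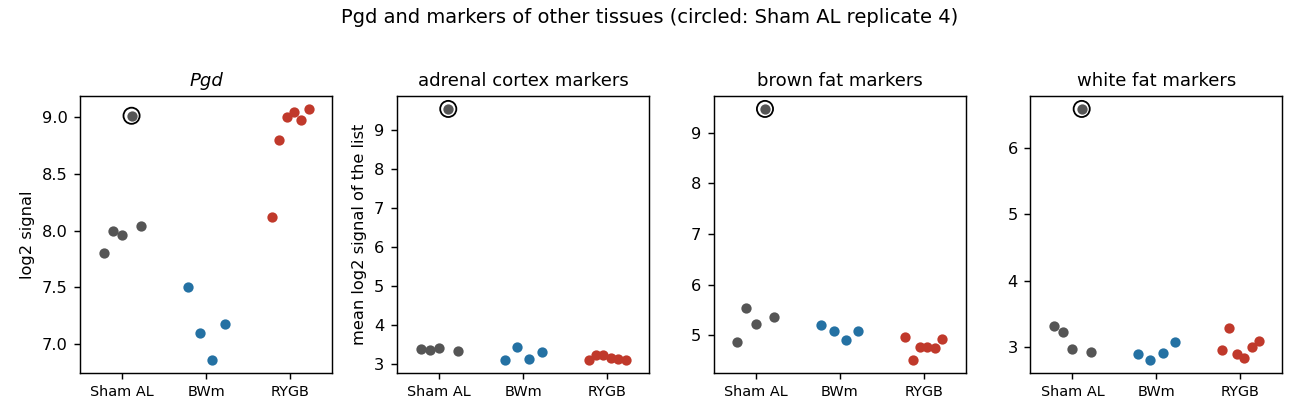
Log2 signal of Pgd (left) and the mean log2 signal of the adrenal cortex, brown fat and white fat marker lists on each array, by group, with Sham AL replicate 4 circled. The circled array has the highest value of every marker list (9.54, 9.47 and 6.59) and lies at 9.01 for Pgd, above the other Sham AL arrays at 7.80 to 8.04.

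Genes listed under quinone, carbonyl and conjugation, Osgin1 among them, made up 4 of the 6 members higher in RYGB than in Sham AL. Nqo1, the quinone reductase that is often used as a readout of NRF2, measured 6.48, 7.36 and 8.23 in RYGB, 6.45, 6.06, 5.81, 6.53 and 6.71 in Sham AL, and 5.88, 5.64, 5.44 and 5.93 in BWm. Replicate 1 was again the lowest RYGB array, inside the Sham AL range, and all 6 lay above BWm. Nqo1 was higher by log2 1.03 ± 0.23 (adjusted p = 0.033) than in Sham AL and by 1.62 ± 0.25 (adjusted p = 0.00054) than in BWm. The first call was lost on leaving out any 1 of RYGB replicates 3 to 6 and Sham AL replicates 1 to 3 (log2 0.85 to 1.2 over all arrays left out in turn, adjusted p of up to 0.1). The second held in every such fit.

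Cbr1 and Cbr3 are neighbouring carbonyl reductase genes that reduce aldehydes, ketones and quinones with NADPH. Cbr1 measured 8.95, 9.97 and 10.32 in RYGB, 8.62, 8.66, 8.56, 8.65 and 8.73 in Sham AL, and 9.02, 9.34, 9.19 and 9.02 in BWm. The Sham AL arrays lay close together and under every array of both other groups, which overlapped each other. Cbr1 was higher by log2 1.18 ± 0.2 (adjusted p = 0.005) in RYGB than in Sham AL, a call that held without any 1 array, and a second cluster of the gene gave log2 1.06. Against BWm it measured log2 0.68 ± 0.21 (adjusted p = 0.07), which passed without RYGB replicate 1 (log2 0.85, adjusted p = 0.0045) or RYGB replicate 2 (log2 0.77, adjusted p = 0.049). BWm against Sham AL gave log2 0.5 ± 0.22 (adjusted p = 0.29) although no arrays overlapped.

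Cbr3 measured 4.37, 6.17 and 6.75 in RYGB, 3.34, 4.12, 4.55, 4.77 and 5.44 in Sham AL, and 4.08, 3.77, 4.06 and 4.02 in BWm. It spread more than any other member within RYGB and within Sham AL (SD 0.87 and 0.78), and several arrays lay near or under the array medians of 3.89 to 4.02, so its folds are uncertain. The difference was log2 1.97 ± 0.39 (adjusted p = 0.0042) against BWm. Against Sham AL it was log2 1.51 ± 0.37 (adjusted p = 0.049), and this call ended without any 1 array other than RYGB replicate 1 or Sham AL replicate 4 or 5 (log2 1.23 to 1.82, adjusted p of up to 0.14).

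Osgin1, named for its induction by oxidative stress and its effect on growth, followed another order. It measured 9.57, 10.69, 10.10, 9.90, 10.21 and 9.86 in RYGB, 9.08, 9.24, 9.07, 8.82 and 9.07 in Sham AL, and 9.5, 9.41, 10.17 and 9.86 in BWm. The RYGB and BWm arrays lay above every Sham AL array and overlapped each other. Osgin1 was higher by log2 1 ± 0.17 (adjusted p = 0.0051) in RYGB than in Sham AL. It measured log2 0.68 ± 0.19 (adjusted p = 0.063) in BWm against Sham AL, which passed without RYGB replicate 1 (adjusted p = 0.048) or RYGB replicate 2 (adjusted p = 0.03), and log2 0.32 ± 0.18 (adjusted p = 0.39) in RYGB against BWm.

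Aox1 and Ephx1 set BWm apart from the other 2 groups. Aox1, aldehyde oxidase, measured 7.94, 8.23 and 8.55 in RYGB, 8.68, 8.51, 8.14, 8.33 and 8.65 in Sham AL, and 7.62, 7.32, 7.69 and 7.53 in BWm. Every BWm array lay under all others. Aox1 was lower, at log2 -0.92 ± 0.14 (adjusted p = 0.0018) in BWm than in Sham AL and higher by log2 0.69 ± 0.13 (adjusted p = 0.0031) in RYGB than in BWm, and RYGB against Sham AL gave log2 -0.23 ± 0.12 (adjusted p = 0.46). Ephx1, the microsomal epoxide hydrolase, measured 10.08, 10.18 and 10.54 in RYGB, 10.43, 10.25, 10.25, 10.22 and 10.19 in Sham AL, and 9.92, 9.39, 9.72 and 9.72 in BWm.

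Again no BWm array reached the other groups. Ephx1 was lower, at log2 -0.58 ± 0.12 (adjusted p = 0.013) in BWm than in Sham AL, a call that ended without BWm replicate 2 (adjusted p = 0.063). It was higher by log2 0.56 ± 0.12 (adjusted p = 0.0062) in RYGB than in BWm, and RYGB against Sham AL gave log2 -0.02 ± 0.11. For these genes the difference between RYGB and BWm therefore sits beside a low BWm level, not beside a called rise over Sham AL.

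Ugdh makes UDP-glucuronic acid, the sugar donor for glucuronide conjugation. It measured 9.88, 10.20 and 10.61 in RYGB, 9.95, 9.81, 9.62, 9.77 and 10.17 in Sham AL, and 9.55, 9.14, 9.53 and 8.99 in BWm. BWm lay under both other groups, which overlapped. Ugdh was higher by log2 0.91 ± 0.15 (adjusted p = 0.0011) in RYGB than in BWm, and measured log2 0.35 ± 0.14 (adjusted p = 0.29) against Sham AL and -0.56 ± 0.16 (adjusted p = 0.068) in BWm against Sham AL, the last of which passed with the animal number block (log2 -0.61, adjusted p = 0.04).

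Among heme and iron genes, Slc48a1 was the 1 member called. It encodes a heme transporter of lysosomal membranes, best known from macrophages that recycle red cells. Slc48a1 measured 8.64, 9.36 and 9.88 in RYGB, 9.00, 8.47, 8.73, 8.96 and 8.5 in Sham AL, and 8.45, 8.35, 8.52 and 8.59 in BWm. All RYGB arrays lay above BWm, the lowest (8.64, replicate 5) narrowly, and that array fell within the Sham AL range. The difference was log2 0.87 ± 0.19 (adjusted p = 0.0083) against BWm and 0.62 ± 0.18 (adjusted p = 0.11) against Sham AL. The latter passed without RYGB replicate 5 (log2 0.76, adjusted p = 0.018).

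The genes that break down heme and store its iron passed no test. Hmox1, heme oxygenase 1, ranged from 7.22 to 8.13 in RYGB, 7.43 to 8.04 in Sham AL and 7.28 to 8.07 in BWm, with log2 differences of -0.03 ± 0.17, -0.05 ± 0.18 and 0.01 ± 0.18 in the order of the comparisons. Blvrb, biliverdin reductase B, measured log2 -0.11 ± 0.12, 0.21 ± 0.13 and -0.32 ± 0.13. Fth1, the ferritin heavy chain, lay between 12.03 and 12.24 on all arrays, and its 6 RYGB arrays lay above its 4 BWm arrays by a mean of log2 0.11 ± 0.08 without a call. Sod1, cytosolic superoxide dismutase, and Cat, catalase, had differences of log2 -0.1 to 0.07.

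**Figure D3:**
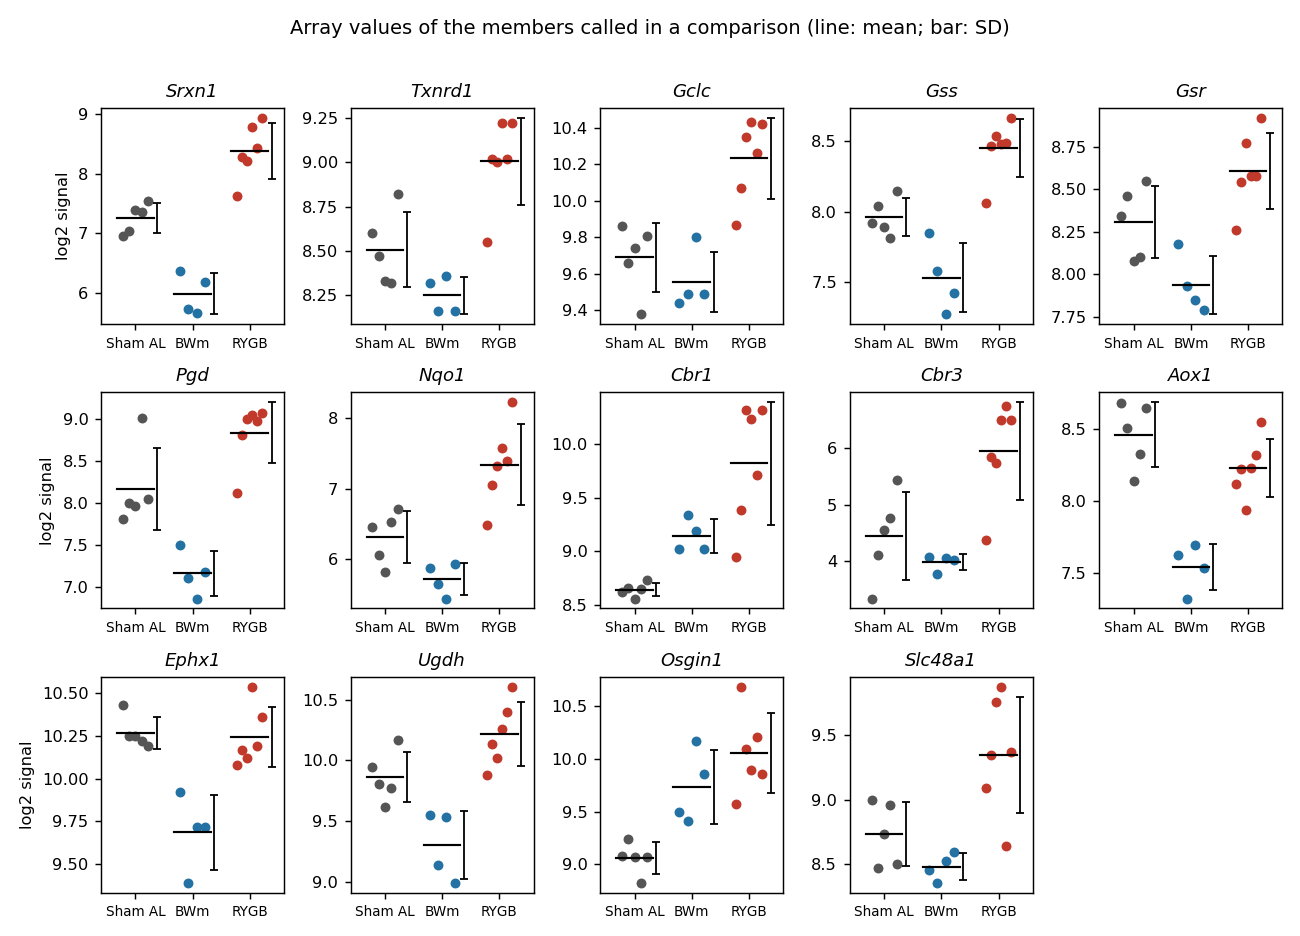
Log2 signal on each array of the 14 genes called in at least 1 comparison, by group (points), with group means as lines and the standard deviation as bars. Srxn1 shows 3 separate levels, Cbr1 and Osgin1 are lowest in Sham AL, and Aox1 and Ephx1 are low in BWm alone.

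By role, called members were spread unevenly. In RYGB against BWm they numbered 2 of 3 thioredoxin genes (median log2 0.76), 3 of 6 glutathione genes (0.56), 1 of 2 pentose phosphate genes (0.95), 5 of 7 quinone, carbonyl and conjugation genes (0.69), 1 of 4 heme and iron genes (0.16), 0 of 3 regulators (0.16) and 0 of 2 superoxide and peroxide genes (-0.07). In RYGB against Sham AL they were 1 thioredoxin gene (0.5), 1 glutathione gene (0.32) and 4 quinone, carbonyl and conjugation genes (1), with 0 in the other roles (-0.01 to 0.16). Osgin1 was counted as 1 of the 4 quinone, carbonyl and conjugation genes, and the median of 1 in that role is its own value. In BWm against Sham AL, 1 thioredoxin gene (-0.33), 1 pentose phosphate gene (-0.79) and 2 quinone, carbonyl and conjugation genes (-0.56) were lower. Roles were not compared by a test. By order of group means, 14 of the 27 genes ran RYGB, Sham AL, BWm from high to low, 6 ran Sham AL, RYGB, BWm, and 3 (Gclm, Cbr1, Osgin1) ran RYGB, BWm, Sham AL. Many of these neighbouring means differ by less than their spread.

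Counted by arrays, 13 of 27 members had every RYGB array above every BWm array, against 4.71% of all genes, and 0 had the reverse, against 2.91%. For 4 members every RYGB array exceeded every Sham AL array, against 1.58% of all genes. All BWm arrays lay under all Sham AL arrays for 6 members (3.39% of all genes) and above them for 2 (3.46%).

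RYGB replicate 1 was the lowest RYGB array for 18 of the 27 members, and for 10 of the 12 called against BWm. Averaged over the members and relative to all arrays, it lay at -0.04, while the other 5 RYGB arrays lay at 0.28 to 0.47, Sham AL at -0.14 to 0.03 and BWm at -0.37 to -0.24. By role it lay at 0.01 for thioredoxin genes against 0.45 to 0.78 on the other RYGB arrays, and at -0.14 against 0.43 to 0.85 for quinone, carbonyl and conjugation genes. RYGB replicate 6 was the highest RYGB array for 13 members. Replicate 1 is singled out for its low values, and where it was lowest, leaving it out can only raise the RYGB mean. Without replicate 1, 9 members were called higher in RYGB than in Sham AL and 14 in RYGB than in BWm, and 4 lower and 1 higher in BWm than in Sham AL. Over all genes that fit called 398, 1445 and 596 in either direction, beside 306, 1411 and 629 with all arrays. Replicate 1 also had the lowest RYGB means of the Kupffer cell (7.61), recruited macrophage (5.82) and neutrophil (2.79) lists. Its means of the hepatocyte (12.3), sinusoidal endothelium (8.2), T cell (4.55) and B cell (4.4) lists were the highest in RYGB. The part of these cells in its low values was not tested. The labels carry animal numbers whose meaning is not stated: 3 RYGB (replicates 1, 2 and 3), 1 Sham AL and 0 BWm animals have numbers under 50. Within animals numbered over 60, a setting chosen after seeing the data, 7 members were higher in RYGB than in Sham AL and 13 higher in RYGB than in BWm. In BWm against Sham AL 4 were lower, and over all genes this setting called 212, 1010 and 440 in the order of the comparisons. Srxn1 there measured log2 1.38, 2.72 and -1.34 in the order of the comparisons. The animals numbered under 50 hold 1 Sham AL array, too few for a test.

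**Figure D4:**
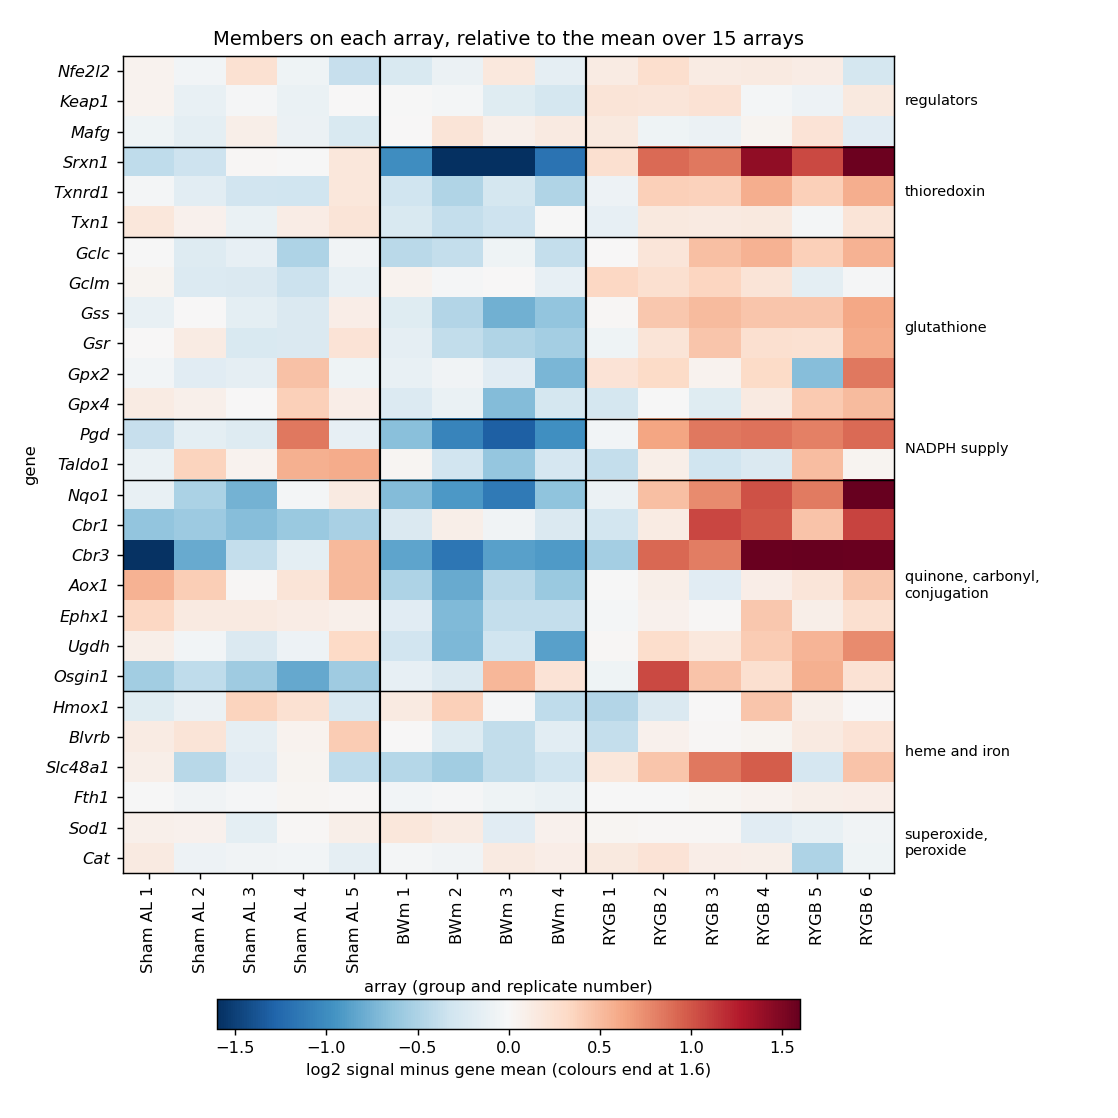
Log2 signal of the 27 genes (rows, by role) on the 15 arrays (columns, by group), each minus the gene's mean over all arrays, with red above and blue below it and colours ending at 1.6. Srxn1, Pgd and Nqo1 turn from blue in BWm to red in RYGB replicates 2 to 6, while RYGB replicate 1 is pale for most genes, and the rows of Fth1, Sod1 and Nfe2l2 stay pale throughout.

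A list of 81 further genes of these pathways, 75 of them measured, was counted in the same way. In RYGB against Sham AL 5 of the 75 were higher (0.938% of all genes) and 1 lower (0.442%), with a median log2 difference of 0. In RYGB against BWm 7 were higher (4.02%) and 3 lower (2.34%), with a median of -0.05. In BWm against Sham AL 2 were higher (1.53%) and 1 lower (1.3%), with a median of -0.03. Sqstm1, whose protein p62 can pull KEAP1 away from NRF2, was higher by log2 0.84 ± 0.11 (adjusted p = 0.00052) against Sham AL and 0.93 ± 0.11 (adjusted p = 0.00011) against BWm. It ranged from 10.53 to 11.06 in RYGB, 9.89 to 10.26 in Sham AL and 9.79 to 10.04 in BWm, with RYGB replicate 1 lowest in its group and still above all sham arrays. Dpp3, another protein that can bind KEAP1, was higher by log2 0.59 ± 0.13 (adjusted p = 0.033) and 0.67 ± 0.14 (adjusted p = 0.0066). Mafk, a small MAF protein like Mafg, was higher by log2 0.5 ± 0.12 (adjusted p = 0.039) and 0.61 ± 0.12 (adjusted p = 0.0049).

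Both subunits of the cystine importer, which feeds glutathione synthesis, were higher after bypass. Slc7a11 measured 4.29, 6.78, 6.98, 6.51, 6.42 and 6.08 in RYGB, so replicate 1 was lowest here too, against 2.90 to 3.91 in Sham AL and 2.89 to 3.41 in BWm. That is log2 2.71 ± 0.35 (adjusted p = 0.00055) and 2.99 ± 0.37 (adjusted p = 0.00012), from sham levels near or under the arrays' medians (3.89 to 4.02). Slc3a2, which also pairs with other amino acid carriers, was higher by log2 0.86 ± 0.17 (adjusted p = 0.013) against Sham AL and 0.74 ± 0.18 (adjusted p = 0.015) against BWm. Glo1, the glyoxalase that clears methylglyoxal with glutathione, was the 1 gene lower after bypass than in Sham AL, at log2 -0.58 ± 0.11 (adjusted p = 0.009).

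Of 16 other genes of NADPH supply, 2 were higher in RYGB than in BWm and 0 were called in RYGB against Sham AL. Me1, malic enzyme, was lower, at log2 -0.98 ± 0.22 (adjusted p = 0.021) in BWm than in Sham AL, and in RYGB it measured log2 -0.79 ± 0.2 (adjusted p = 0.062) against Sham AL and 0.19 ± 0.21 against BWm. Its Sham AL arrays measured 8.93, 9.51, 8.70, 10.08 and 8.73, with replicate 4 highest, as for Pgd. Aldh1l2, a mitochondrial folate enzyme that yields NADPH, was higher in RYGB than in BWm by log2 0.98 ± 0.21 (adjusted p = 0.0065), from group means of 4.14 and 3.17. Glrx, glutaredoxin, and Slc40a1, the iron exporter, were higher in BWm than in Sham AL, by log2 0.95 ± 0.21 (adjusted p = 0.019) and 0.61 ± 0.15 (adjusted p = 0.039). The 3 genes lower in RYGB than in BWm, named here after their values were seen, were Txnip, which binds and inhibits thioredoxin (log2 -1.13 ± 0.27, adjusted p = 0.014), Ephx2, the soluble epoxide hydrolase (log2 -0.55 ± 0.12, adjusted p = 0.0074), and Nox4, an NADPH oxidase (log2 -0.74 ± 0.2, adjusted p = 0.029).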

How the data were processed

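Liver RNA of 15 mice was measured on 1-colour arrays, 1 per mouse. The deposited log2 signals of 41345 transcript clusters were made by the authors with RMA (background correction, normalization across arrays and probe summary) in Expression Console 1.4.1.46, per the series' design text. Scanner files, and so signal over background, were not used here, and the annotation version is not given in the sources used here. Only the 23521 clusters with 1 symbol in the platform annotation were tested, while 1814 had several and 16010 had none. For 1082 genes with several clusters, the one with the highest mean over the arrays was used. All 27 members matched RefSeq by Entrez number. Copies with near-identical sequence can share signal.

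All comparisons were contrasts of group means in 1 fit (limma 3.58.1, R 4.3.3, lmFit and eBayes, 12 residual and 5.85 prior degrees of freedom), two-sided, with Benjamini-Hochberg adjustment over 22180 genes and a threshold of 0.05. Errors after differences are standard errors. The fit was tested on simulated data. Tables and figures used Python 3.11.15, pandas 2.3.3 and matplotlib 3.10.9. The number of arrays limits the precision, with member standard errors of 0.07 to 0.41. For members called in any comparison and for Nfe2l2 and Keap1, each Sham AL and BWm array value is given. For RYGB the lowest, median and highest of 6 arrays are given, with all 6 for Osgin1. Of the further pathway genes the called ones are named, at most the 5 with the smallest p in a comparison, besides 3 named after their values were seen. Members, lists and tests were chosen with earlier results of these data known. Alternatives were other filters, normalizations, cluster choices, priors, weights, blocks, samples in the fit, the methods' one-way analysis of variance and leaving out each array.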

Additional observations from a re-analysis of the deposited data

Results flagged for a closer look

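In 81 tests of a group of 4 to 6 arrays for 1 member, 9 arrays lay apart from the rest of their group by Dixon's gap test, where chance gives about 1 in 20. RYGB replicate 1 was low for 4 genes: Txnrd1 at 8.55 (others 9.00 to 9.22), Gss at 8.06 (8.47 to 8.67), Pgd at 8.12 (8.80 to 9.07) and Blvrb at 7.48 (7.88 to 8.09). Sham AL replicate 4 was high for Pgd at 9.01 (7.80 to 8.04) and for Gpx2 at 2.49 (1.84 to 1.97). The other 3 were Nfe2l2 in RYGB replicate 6 at 8.27 (8.67 to 8.82), Gclc in BWm replicate 3 at 9.80 (9.44 to 9.49) and Ephx1 in Sham AL replicate 1 at 10.43 (10.19 to 10.25).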

How the results depend on the processing

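Of the 22 calls of members, 16 held under every limma alternative: 3 of 6 in RYGB against Sham AL (Srxn1, Cbr1, Osgin1), 11 of 12 in RYGB against BWm and 2 of 4 in BWm against Sham AL (Srxn1, Aox1), and 0 changed direction. Slc48a1 was the exception in RYGB against BWm, among animals numbered over 60 (adjusted p = 0.057), a setting chosen after seeing the data. Some differences short of the threshold in the main fit passed in another fit of all arrays. Pgd and Slc48a1 against Sham AL passed with array weights (adjusted p = 0.047 and 0.048), and Cbr1 against BWm with the animal number block (0.03). With the replicate block these did not pass (0.22, 0.092 and 0.18). In RYGB against Sham AL the count of members was 3 with a fit on the compared groups only, 3 over all transcript clusters (169 calls in all) and 0 under the methods' one-way analysis of variance after Benjamini-Hochberg adjustment (54 in all). In BWm against Sham AL, 2 members were higher with the compared groups only, 1 with a filter on a mean of at least 4, and 1 under that analysis at p under 0.05 and 1.5-fold, while after adjustment 0 were lower (90 in all). In RYGB against BWm that analysis called 11 members higher at p under 0.05 and 1.5-fold (857 genes in all) and 9 after adjustment (833 in all), beside 12 in the main fit. The median of the members in RYGB against BWm was log2 0.59 with the block for animal number and 0.68 among animals numbered over 60.

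Leaving out 1 array gave 3 to 9 members higher in RYGB against Sham AL (144 to 398 genes in all, member median 0.13 to 0.31), 12 to 14 in RYGB against BWm (930 to 1544, 0.36 to 0.57), and 2 to 5 lower and 0 to 1 higher in BWm against Sham AL (284 to 646). The counts over all genes were lowest without Sham AL replicate 2, BWm replicate 3 and BWm replicate 2 or 3. The member median of 0.31 came without RYGB replicate 5. With the replicate number as a block, 5, 12 and 4 members were called (174, 903 and 325 genes in all). With group means removed, arrays of the same number in other groups correlated at r of -0.17 to 0.19 over 13 pairs (4 above 0.1). Those of other numbers correlated at r of -0.268 to 0.194 over 61 pairs (13 above 0.1). Of 14 arrays, 2 correlated best with one of their own number, and the numbers were not taken as pairs. The causes of these changes were not tested.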
